A study of Mus musculus with 20 samples.

Results

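The 73 genes described here encode proteins of the mitochondrial ribosome. They are the rows of a blood RPKM table of 9228 genes whose symbols begin with Mrpl or Mrps followed by a digit, 46 named for the large subunit (Mrpl) and 27 for the small subunit (Mrps). RPKM is a read count divided by the length of the gene and by the size of the library, so that levels of genes of different length can be compared. Peripheral blood RNA was sequenced from female C57BL/6 mice aged 22 to 23 weeks, with 4 mice for each of 5 genotypes. Lyn-/-Ifnar1-/- mice lacked the Src family kinase Lyn and IFNAR1, which forms part of the receptor for type I IFNs. Lyn-/-Irf5-/- and Lyn-/-Irf5+/- mice lacked Lyn and both copies or 1 copy of the transcription factor gene Irf5. Lyn-/- mice lacked Lyn alone and served as the reference for these 3 genotypes, and WT mice served as the reference for Lyn-/- mice. All alleles were germline deletions, so every cell of the animal carried them, and WT mice were purchased rather than bred with the knockouts. Lyn-/- mice develop a disease like systemic lupus erythematosus, and the comparisons ask how blood RNA differs in that disease and with the loss of IRF5 or of type I IFN signaling.

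Mitochondria keep a small genome that codes for core subunits of the respiratory chain, and they translate it on a ribosome of their own. The ribosomal RNA comes from that genome, whereas all the proteins are nuclear-encoded, made in the cytosol and imported. Many have counterparts in bacterial ribosomes and others occur only in mitochondria. Reticulocytes, the youngest red cells, still hold mitochondria and much globin mRNA and add to whole blood RNA beside leukocytes and platelets, whereas mature red cells have lost their mitochondria.

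According to the RefSeq annotation of GRCm38.p6, the assembly called mm10 in the labels, the 73 genes lay on 17 chromosomes, with the most (10) on chromosome 11. RefSeq starts were at hand for 64 of them. Of these, 25 (39.1%) began within 1000 bases of another gene that was transcribed in the opposite direction, head to head, against 1308 of 7024 genes of the table (18.6%) and 3075 of 27025 promoters in all (11.4%). The pairs included Mrpl46 with Mrps11, whose starts were 42 bases apart, Mrpl32 with the proteasome subunit gene Psma2 (205 bases), Mrpl18 with the chaperonin gene Tcp1 (238 bases), Mrps12 with the mitochondrial seryl-tRNA synthetase gene Sars2 (147 bases), and Mrpl47 with the complex I subunit gene Ndufb5 (308 bases).

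Short motifs were searched on both strands in the 250 bases before and 50 bases after each start, using the first start listed for a gene. The ETS core CCGGAAG, bound by GABPA among others, was present in 23 of 64 promoters (35.9%), against 20.8% of the table's promoters and 9.12% of all promoters. The NRF1 core GCGCATGC was present in 8 (12.5%), against 5.94% and 2.80%, and the YY1 motif AAGATGGC in 12 (18.8%), against 5.60% and 2.88%. The CCAAT box was found by those 5 letters in 26 (40.6%), against 38.2% and 37.9%. The motif AGATAA of the erythroid factor GATA1 and its relatives was found in 10 (15.6%), against 6.44% and 11.4%. These are letter matches in a window and not measured binding. The promoters of 5 genes that differed between Lyn-/- and WT mice, with RefSeq sequence available, are shown so that the genes that were higher and those that were lower can be compared, with all matches to the 5 motifs in capitals:
Mrpl32: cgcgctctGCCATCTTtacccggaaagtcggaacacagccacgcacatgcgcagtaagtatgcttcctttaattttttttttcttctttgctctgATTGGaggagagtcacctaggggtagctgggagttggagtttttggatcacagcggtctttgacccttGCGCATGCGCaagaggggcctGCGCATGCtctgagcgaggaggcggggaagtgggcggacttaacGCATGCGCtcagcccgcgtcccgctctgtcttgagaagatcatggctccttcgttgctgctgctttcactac
Mrpl20: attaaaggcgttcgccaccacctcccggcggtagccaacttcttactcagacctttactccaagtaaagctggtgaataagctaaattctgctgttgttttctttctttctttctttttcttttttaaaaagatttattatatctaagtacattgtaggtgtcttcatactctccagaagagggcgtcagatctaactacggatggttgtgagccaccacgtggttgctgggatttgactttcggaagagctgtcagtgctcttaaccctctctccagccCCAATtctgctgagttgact
Mrpl33: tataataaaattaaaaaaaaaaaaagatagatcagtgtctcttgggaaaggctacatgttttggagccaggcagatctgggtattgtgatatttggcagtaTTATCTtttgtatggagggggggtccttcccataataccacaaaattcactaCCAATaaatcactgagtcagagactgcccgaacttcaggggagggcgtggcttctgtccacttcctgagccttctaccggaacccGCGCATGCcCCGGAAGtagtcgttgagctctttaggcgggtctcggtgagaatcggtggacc
Mrps26: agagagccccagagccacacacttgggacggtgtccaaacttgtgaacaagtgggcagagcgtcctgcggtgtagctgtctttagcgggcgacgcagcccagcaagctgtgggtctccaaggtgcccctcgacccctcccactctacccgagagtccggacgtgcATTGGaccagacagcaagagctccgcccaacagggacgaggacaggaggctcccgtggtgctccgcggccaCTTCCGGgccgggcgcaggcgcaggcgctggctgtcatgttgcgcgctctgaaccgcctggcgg
Mrpl18: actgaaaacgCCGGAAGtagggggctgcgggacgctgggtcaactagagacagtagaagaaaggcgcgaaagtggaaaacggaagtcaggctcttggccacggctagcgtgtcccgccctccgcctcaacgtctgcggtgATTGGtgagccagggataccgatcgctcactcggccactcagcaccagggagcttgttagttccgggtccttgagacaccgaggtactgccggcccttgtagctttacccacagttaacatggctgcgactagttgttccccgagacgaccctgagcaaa
They lie at chr13:14612988-14613287 (minus strand), chr4:155802628-155802927 (plus strand), chr5:31613701-31614000 (plus strand), chr2:130563507-130563806 (plus strand) and chr17:12916042-12916341 (minus strand) in the order shown. Mrpl32 holds a YY1 match, a CCAAT match and 4 NRF1 matches, 2 of which overlap each other. Mrpl20 holds a CCAAT match alone. Mrpl33 holds 1 match each to the ETS, NRF1, GATA and CCAAT motifs. Mrps26 and Mrpl18 each hold 1 CCAAT and 1 ETS match. No motif was common to the 3 genes that were higher other than CCAAT, which the 2 that were lower also hold.

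The shared promoter of Mrpl46 and Mrps11 (chr7:78783040-78783339, minus strand, the strand of Mrpl46) is shown because Mrpl46 differed between genotypes, with the bases between the 2 starts in capitals:
Mrpl46: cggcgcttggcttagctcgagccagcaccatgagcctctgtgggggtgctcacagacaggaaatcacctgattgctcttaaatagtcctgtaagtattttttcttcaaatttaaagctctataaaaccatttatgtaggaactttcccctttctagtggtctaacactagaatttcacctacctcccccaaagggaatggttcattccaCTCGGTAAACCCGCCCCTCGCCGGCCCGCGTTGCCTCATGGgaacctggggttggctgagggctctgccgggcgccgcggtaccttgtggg
It holds none of the 5 motifs as spelled above.

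The libraries were shallow for these genes. Whole reads, recovered from the steps between low RPKM values, summed to 1020207 to 2414393 per library, and 55.5 to 78.9% of a library's RPKM fell on the hemoglobin genes Hbq1a, Hbq1b and Beta-s. The step of a library was enlarged where nearly all of its low counts were multiples of a small number, and 49.0 to 51.0% of the low counts of a library were even after this. The totals and read numbers given here depend on that reconstruction, since the table holds no counts. The median member had a median of 17 reads per library, and 290 of the 1460 values of the 73 genes rested on under 10 reads. Lyn-/-Ifnar1-/- mouse 3 stood apart, with 617 reads over all 73 genes and 59 of them under 10 reads, against 979 to 2596 reads in the other 19 libraries. Rank correlations between libraries of a genotype, across genes, ran from 0.885 to 0.972. Lyn itself stood at 2.42 to 13.76 RPKM in the mice labelled Lyn-/- of all 4 genotypes and at 32.45 to 36.94 RPKM in WT mice, without overlap. Intervals given below cover 95% and come from the spread between mice.

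The mitochondrial ribosomal protein genes were expressed at modest and unequal levels. The median gene averaged 5.29 RPKM over the 20 mice, against 3.78 RPKM for the median gene of the table, and the genes named for the large and the small subunit had medians of 5.31 and 4.86 RPKM. The highest mean was 84.5-fold the lowest. Mrpl32 led with 55.7 RPKM (its precursor is cut by the m-AAA protease of the inner membrane in yeast and mouse), followed by Mrps21 with 36.8, Mrpl20 with 30.0, Mrpl52 with 29.5, Mrpl33 with 26.0 and Mrpl24 with 25.5 RPKM. These 6 genes were at 20 RPKM or above, 10 more lay between 10 and 20 RPKM, and 57 were below 10. The lowest 3 were Mrpl17 (0.659 RPKM), Mrps25 (0.915 RPKM) and Mrpl35 (1.05 RPKM).

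**Figure D1:**
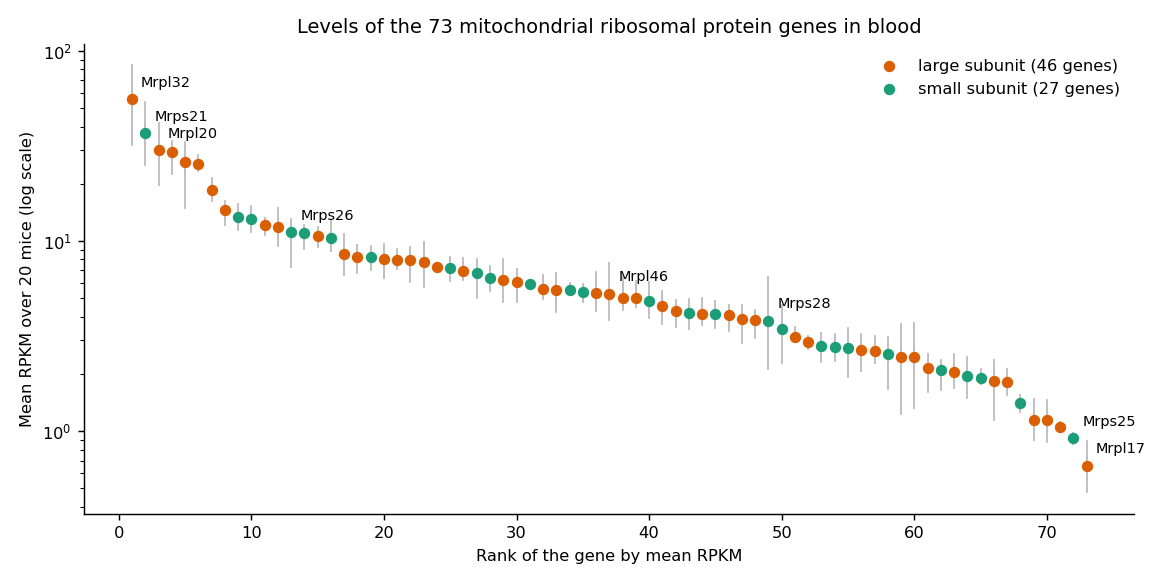
Mean RPKM over 20 mice (log axis) of the 73 genes in order of their mean, coloured by the subunit in the gene's name; grey lines span the lowest and highest genotype mean. The genes range between 0.659 RPKM (Mrpl17) and 55.7 RPKM (Mrpl32).

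The 3 paralogs related to the bacterial small-subunit protein S18 were all expressed. Mrps18c averaged 8.19 RPKM, Mrps18a 5.37 RPKM and Mrps18b 3.45 RPKM. Despite their shared name, structures place the Mrps18a protein in the large subunit. None of the 3 passed the test in any comparison. Mrps18b was listed at 0 in Lyn-/-Ifnar1-/- mouse 3, as were Mrpl27 and Mrps11, and Mrpl47 was listed at 0 in WT mouse 3. These 4 values are the only zeros among the 1460.

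Averaged over the 72 genes that could be tested (Mrpl17 did not reach 1 RPKM in 4 libraries), the genotypes were close. The mean log2(RPKM + 0.5) of these genes in a mouse was 2.44 ± 0.14 in Lyn-/-Ifnar1-/-, 2.57 ± 0.06 in Lyn-/-Irf5-/-, 2.63 ± 0.09 in Lyn-/-Irf5+/-, 2.45 ± 0.12 in Lyn-/- mice, with 2.51 ± 0.12 in the WT animals (SD over 4 mice each). The ranges of Lyn-/- mice (2.32 to 2.61) and WT mice (2.33 to 2.62) nearly coincided. The lowest value of all, 2.28, belonged to Lyn-/-Ifnar1-/- mouse 3. The large-subunit genes averaged 2.51, 2.64, 2.73, 2.56 and 2.57 and the small-subunit genes 2.32, 2.44, 2.48, 2.25 and 2.41, with the genotypes in the order above.

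In Lyn-/- against WT mice, 6 of 72 genes passed an adjusted p of 0.05 (limma over 8696 genes), with 3 higher (Mrpl32, Mrpl20 and Mrpl33) and 3 lower (Mrps26, Mrps34 and Mrpl18) in Lyn-/- mice. That is 8.33% of the members, where 32.5% of all genes tested passed (17.1% higher and 15.5% lower). The median member had a log2 fold change of -0.14, against -0.03 over all genes, and 28 of 72 were positive (38.9%, against 47.7% of all genes). The 95% interval lay within a 2-fold change (log2 of 1) either way for 54 of the 72 genes (75.0%, against 62.6% of all genes). With every library scaled to the same RPKM sum, no member passed, where 847 of the 8696 genes did. With the same sum outside the hemoglobin genes, 10 passed and all were lower, where 2957 of the 8696 genes passed, 2442 of them lower. The median over all genes moved to -0.53 and that of the members to -0.63.

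**Figure D2:**
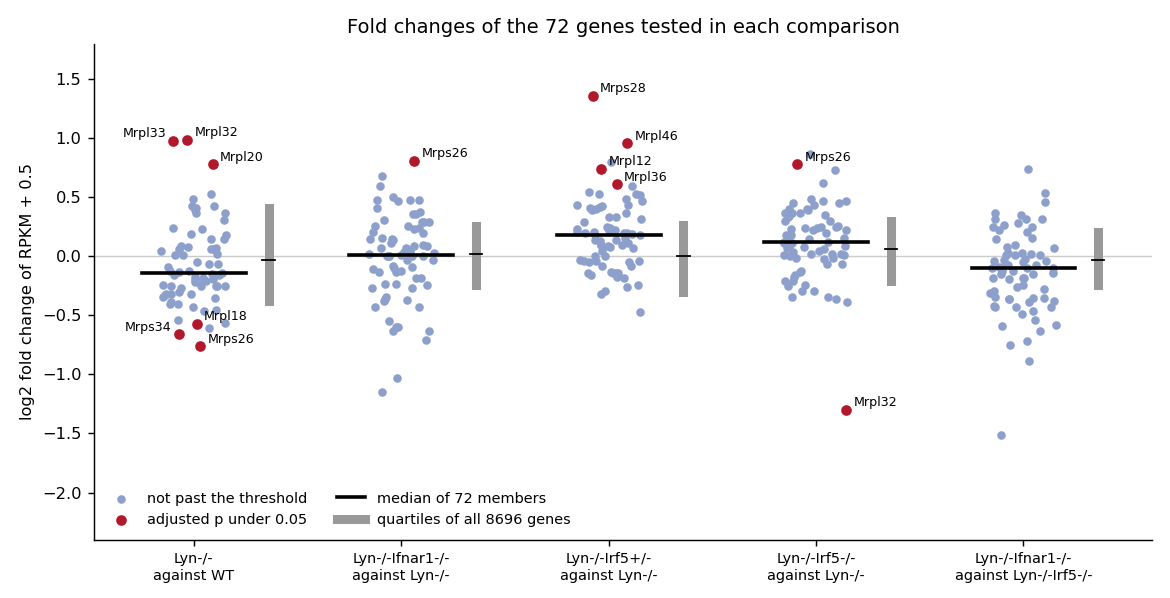
Log2 fold change of RPKM + 0.5 for each of the 72 genes tested (dots, spread sideways for visibility) in the 5 comparisons; red dots passed an adjusted p of 0.05, black bars are the members' medians, and grey bars the quartiles and median of all 8696 genes. The members' medians lie between -0.14 and 0.18, and 0 to 6 genes per comparison are red.

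The genes that rose in Lyn-/- mice were all of the large subunit and were 3 of the 5 most abundant members. That rank is by the mean over 20 mice, which includes the Lyn-/- mice. In WT mice alone, Mrpl33 averaged 14.9 RPKM, below Mrpl24 (28.4), Mrps21 (25.2) and Mrpl52 (22.6). Mrpl32 had 53.1, 97.4, 61.6 and 123 RPKM in Lyn-/- mice, against 39.3, 42.9, 39.8 and 36.6 RPKM in WT mice. The genotypes did not overlap, and the Lyn-/- mice spread over more than a 2-fold range while the WT mice were tight. The log2 fold change was 0.99 (SE 0.35, interval 0.27 to 1.72, adjusted p = 0.0346). Mrpl20, whose bacterial counterpart binds ribosomal RNA early in assembly, had 25.3, 39.7, 36.8 and 36.1 RPKM in Lyn-/- mice, against 21.4, 18.4, 19.5 and 19.3 RPKM in WT mice. Here too every Lyn-/- mouse was above every WT mouse, with a log2 fold change of 0.78 (SE 0.26, interval 0.24 to 1.32, adjusted p = 0.0272). Mrpl33 had 41.4, 27.4, 26.7 and 24.4 RPKM in Lyn-/- mice, against 20.5, 12.5, 13.6 and 13.2 RPKM in WT mice. The groups were apart, although each had 1 mouse well above the other 3 (log2 fold change 0.98, SE 0.35, interval 0.24 to 1.71, adjusted p = 0.0400). Each of these 3 calls was lost on leaving out any 1 of 6 libraries. For Mrpl32 these were Lyn-/- mice 2 and 4 and all WT mice (adjusted p = 0.0543 to 0.122). For Mrpl20 they were Lyn-/- mice 2, 3 and 4 and WT mice 2, 3 and 4 (0.0504 to 0.0742), and for Mrpl33 Lyn-/- mice 1, 2 and 3 and WT mice 2, 3 and 4 (adjusted p = 0.0553 to 0.106).

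The genes that fell in Lyn-/- mice include 2 that exist only in mitochondrial ribosomes, Mrps26 and Mrps34. Mrps26 had 9.74, 5.03, 8.97 and 5.45 RPKM in Lyn-/- mice, against 10.8, 11.8, 11.4 and 15.3 RPKM in WT mice. The groups were apart, with Lyn-/- mice 2 and 4 the lowest of all 20 mice. The log2 fold change was -0.76 (SE 0.22, interval -1.21 to -0.31, adjusted p = 0.0109), and this call was kept whichever library was left out. Mrps34, mutated in human Leigh syndrome, had 6.14, 4.90, 6.15 and 2.92 RPKM in Lyn-/- mice, against 9.88, 8.11, 6.29 and 7.75 RPKM in WT mice. WT mouse 3 lay just above the highest Lyn-/- mouse, so the gap between groups was small (log2 fold change -0.66, SE 0.24, interval -1.16 to -0.15, adjusted p = 0.0423). Mrpl18, which takes part in the import of a cytosolic ribosomal RNA into human mitochondria, had 5.17, 5.97, 6.84 and 6.38 RPKM in Lyn-/- mice, against 9.95, 10.3, 7.28 and 9.77 RPKM in WT mice. The groups were again apart (log2 fold change -0.57, SE 0.20, interval -0.99 to -0.15, adjusted p = 0.0362). Its annotated span overlaps that of Tcp1, and the strand setting of the read count is not given in the sources used here, so that reads of the pair may be mixed. Mrps34 lost its call without Lyn-/- mouse 2 or 4 or WT mouse 1, 2 or 4 (adjusted p = 0.0733 to 0.171), and Mrpl18 without Lyn-/- mouse 1, 2 or 4 or WT mouse 1, 2 or 4 (0.0563 to 0.0885). limma-voom on the recovered reads did not call Mrps34 either.

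**Figure D3:**
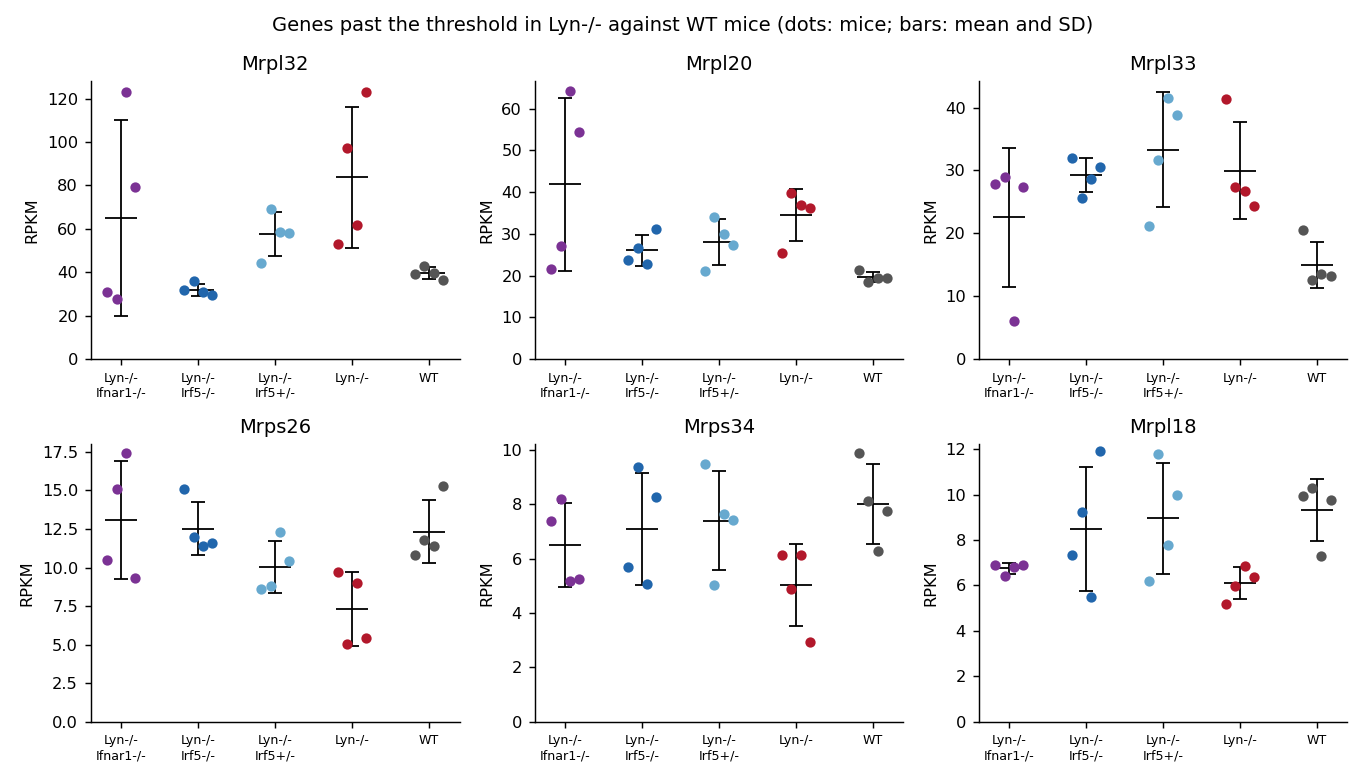
RPKM of the 6 genes that passed the threshold in Lyn-/- against WT mice, in all 5 genotypes (dots are mice, bars the mean and SD, n = 4). Lyn-/- mice lie above WT mice for Mrpl32, Mrpl20 and Mrpl33 and below them for Mrps26, Mrps34 and Mrpl18.

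Among the members that did not pass, Mrpl39 and Mrpl38 also had Lyn-/- mice wholly below WT mice, with log2 fold changes of -0.61 (interval -1.11 to -0.12, adjusted p = 0.0522) and -0.32 (interval -0.69 to 0.05, adjusted p = 0.173). The abundant Mrps21 had 37.2, 44.3, 28.8 and 34.4 RPKM in Lyn-/- mice, against 25.1, 17.9, 26.1 and 31.6 RPKM in WT mice. These overlap, and the log2 fold change of 0.53 (interval 0.01 to 1.04) had an adjusted p of 0.107.

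RNA of erythroid marker genes, a list without globin genes, differed along the same contrast. The hemoglobin share of RPKM went the other way, at 55.5 to 61.3% in Lyn-/- mice and 65.5 to 69.0% in WT mice. Of 14 erythroid marker genes in the table (16 listed), 12 were higher in Lyn-/- than in WT mice and none was lower, and no marker was listed at 0 in any library. Their mean log2(RPKM + 0.5) was 6.71 to 8.10 in Lyn-/- mice and 5.45 to 6.03 in WT mice. All 11 B cell markers tested were lower in Lyn-/- mice (1.94 to 2.53 on the same scale, against 4.99 to 5.43 in WT mice), and all 9 monocyte markers tested were higher (4.81 to 5.08, against 3.08 to 3.27). Of the neutrophil markers 7 of 10 were higher (5.08 to 7.04 in Lyn-/- mice, against 4.03 to 4.74 in WT mice), as were 2 of 8 platelet markers (6.86 to 7.83, against 6.65 to 7.03) and 3 of 9 erythroblast and cell cycle markers (1.32 to 2.43, against 1.11 to 1.32). Lower were 4 of 8 NK cell markers (1.86 to 2.69 in Lyn-/- mice, against 3.08 to 3.37 in WT mice) and 4 of 12 T cell markers (4.34 to 4.91, against 4.91 to 5.28). Markers listed at 0 in at least 1 library included the B cell genes Cr2 and Ebf1 and the monocyte gene Lyz1. In whole blood, fewer cells of a type and less RNA per cell cannot be told apart. The part of cell composition in the changes of the members was not tested.

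Mrpl32 had the same order as the erythroid markers among the 4 Lyn-/- mice, but not in every genotype. The erythroid mean of the 4 mice was 6.71, 7.68, 7.16 and 8.10, and Mrpl32 stood at 53.1, 97.4, 61.6 and 123 RPKM in the same mice. In Lyn-/-Ifnar1-/- mice the erythroid mean was 5.55, 5.55, 8.19 and 7.16, with Mrpl32 at 30.9, 27.5, 123 and 79.1 RPKM. In WT mice, where the erythroid mean varied little, Mrpl32 kept between 36.6 and 42.9 RPKM. In Lyn-/-Irf5-/- mice the erythroid mean was 4.82, 5.27, 5.04 and 5.41, with Mrpl32 at 31.6, 35.9, 31.1 and 29.3 RPKM, so that the mouse with the highest erythroid mean had the lowest Mrpl32. The Lyn-/-Irf5+/- mice had 44.4, 69.3, 58.4 and 58.3 RPKM at erythroid means of 5.59, 5.71, 5.73 and 5.94, also in another order. Mrps21 and Mrpl20 were likewise highest in Lyn-/-Ifnar1-/- mice 3 and 4, at 89.1 and 57.9 RPKM and at 64.3 and 54.5 RPKM. Mrpl33 went the other way, with its lowest value of all 20 mice (5.99 RPKM, 3 reads) in Lyn-/-Ifnar1-/- mouse 3. Its highest value among Lyn-/- mice (41.4 RPKM) was in mouse 1, which had the lowest erythroid mean of that genotype. Mrps26 had its lowest values in Lyn-/- mice 2 and 4, those with the highest erythroid means of that genotype, but its highest (17.4 RPKM) in Lyn-/-Ifnar1-/- mouse 3, which had the highest erythroid mean of all.

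**Figure D4:**
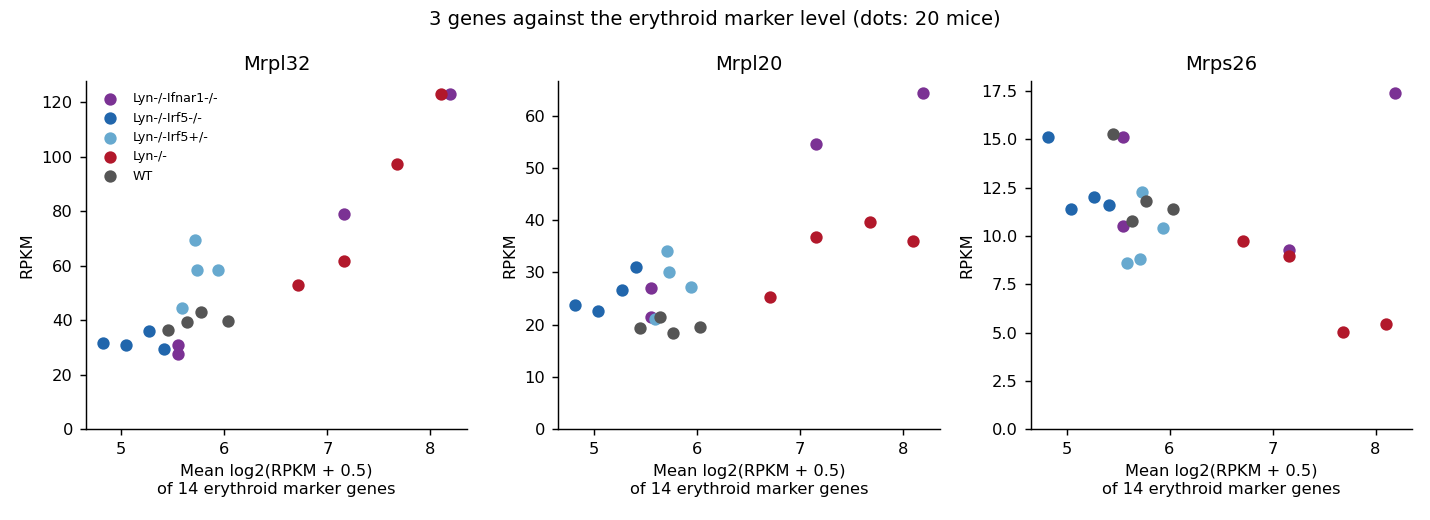
RPKM of Mrpl32, Mrpl20 and Mrps26 in each of the 20 mice against the mean log2(RPKM + 0.5) of 14 erythroid marker genes, coloured by genotype. The 2 mice with the highest erythroid means (8.19 and 8.10) have the highest Mrpl32, 123 RPKM each, whereas for Mrps26 the same 2 mice lie far apart.

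In Lyn-/-Ifnar1-/- against Lyn-/- mice, Mrps26 was higher and none was lower (1.39% of 72, where 6.69% of all genes tested passed, 2.74% as higher and 3.96% as lower). At an unadjusted p under 0.05 in either direction were 7 members (9.72%, against 22.6% of all genes). Mrps26 had 10.5, 15.1, 17.4 and 9.30 RPKM in Lyn-/-Ifnar1-/- mice, against 9.74, 5.03, 8.97 and 5.45 RPKM in Lyn-/- mice. The ranges overlapped between 9.30 and 9.74 RPKM. The log2 fold change was 0.81 (interval 0.36 to 1.26, adjusted p = 0.0277), and the call was lost without Lyn-/- mouse 2 or 4 or Lyn-/-Ifnar1-/- mouse 2 or 3 (0.0561 to 0.0978). limma-voom on the recovered reads called no member in this comparison. The median log2 fold change was 0.01, against 0.02 over all genes. Of the 72 intervals, 55 lay within a 2-fold change (76.4%, against 76.1% over all genes). Without Lyn-/-Ifnar1-/- mice 3 and 4, whose erythroid means were 8.19 and 7.16, Mrpl32 was also called, as lower. Higher in this comparison were 6 of 11 B cell markers (2.41 to 3.30 in Lyn-/-Ifnar1-/- mice, against 1.94 to 2.53 in Lyn-/- mice), 6 of 12 T cell markers (4.94 to 5.49, against 4.34 to 4.91) and 4 of 8 NK cell markers (2.49 to 3.46, against 1.86 to 2.69). Lower were 4 of 9 monocyte markers (3.92 to 4.48 in Lyn-/-Ifnar1-/- mice, against 4.81 to 5.08 in Lyn-/- mice) and 1 of 10 neutrophil markers (4.18 to 5.60, against 5.08 to 7.04). None of the 14 erythroid markers passed, although only 1 was positive and the median log2 fold change was -0.94. By limma, 6 of them had an unadjusted p under 0.05. Erythroid means were 5.55 to 8.19 in Lyn-/-Ifnar1-/- mice, against 6.71 to 8.10 in Lyn-/- mice. The part of cell composition in the call of Mrps26 was not tested.

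In Lyn-/-Irf5+/- against Lyn-/- mice, 4 members were higher (Mrps28, Mrpl46, Mrpl12 and Mrpl36) and none was lower. This was 5.56% of 72, where 14.6% of all genes tested passed (6.12% as higher and 8.46% as lower). At an unadjusted p under 0.05 were 13 members (18.1%, against 29.6% of all genes). The median log2 fold change was 0.18, against -0.00 over all genes, and 51 of 72 were positive (70.8%, against 49.9% of all genes). Within a 2-fold change lay 56 intervals (77.8%, against 73.6% over all genes). limma-voom called 3 of the 4, without Mrpl36. Lyn-/-Irf5+/- mice 2 and 3 had the fewest reads of the series (1098011 and 1020207) and the highest hemoglobin shares (78.9 and 75.8%). The Lyn-/-Irf5+/- samples are also numbered apart from those of the other 4 genotypes. Any difference in their handling could not be told apart from genotype. With every library scaled to the same RPKM sum none of the 4 passed, and with the same sum outside hemoglobin 2 passed (Mrpl46 and Mrps28). Over all genes, 457 and 591 passed under these scalings.

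Cell type markers differed in the same comparison. The hemoglobin share of RPKM was 60.6 to 78.9% in Lyn-/-Irf5+/- mice, against 55.5 to 61.3% in Lyn-/- mice. Of the erythroid markers 11 of 14 were lower (5.59 to 5.94 in Lyn-/-Irf5+/- mice, against 6.71 to 8.10 in Lyn-/- mice), as were 5 of 9 monocyte markers (highest 4.52, against a lowest of 4.81 in Lyn-/- mice) and 1 of 9 erythroblast and cell cycle markers (1.01 to 1.32, against 1.32 to 2.43). Higher were 8 of 11 B cell markers (3.22 to 3.56 in Lyn-/-Irf5+/- mice, against 1.94 to 2.53 in Lyn-/- mice), 6 of 12 T cell markers (5.03 to 5.40, against 4.34 to 4.91) and 4 of 8 NK cell markers (3.14 to 3.27, against 1.86 to 2.69). Their part in the calls of the 4 members was not tested.

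Mrps28, of the small subunit, had 4.30, 3.92, 10.4 and 7.18 RPKM in Lyn-/-Irf5+/- mice, against 3.43, 1.83, 1.43 and 1.82 RPKM in Lyn-/- mice. All Lyn-/-Irf5+/- mice were above all Lyn-/- mice, although a library held only 2 to 16 reads of this gene. The log2 fold change of 1.36 (SE 0.31, adjusted p = 0.00625) was the largest rise among the members in the 5 comparisons. Mrpl46 had 5.53, 7.15, 9.08 and 8.99 RPKM in Lyn-/-Irf5+/- mice, against 2.95, 6.41, 2.68 and 3.40 RPKM in Lyn-/- mice. Lyn-/- mouse 2 reached into the Lyn-/-Irf5+/- range and the other 3 were well below it (log2 fold change 0.96, SE 0.21, interval 0.51 to 1.40, adjusted p = 0.00533). The calls of Mrps28 and Mrpl46 were kept whichever library was left out. Mrps11, which shares a promoter region with Mrpl46, had 2.48, 2.71, 5.97 and 2.84 RPKM in Lyn-/-Irf5+/- mice, against 2.64, 2.95, 1.99 and 2.09 RPKM in Lyn-/- mice. It did not pass (log2 fold change 0.39, interval -0.53 to 1.32, adjusted p = 0.596), and its wide interval holds the value of Mrpl46.

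Mrpl12, part of the stalk that recruits translation factors and a partner of the mitochondrial RNA polymerase in human cells, had 10.9, 12.5, 10.5 and 9.75 RPKM in Lyn-/-Irf5+/- mice, against 8.13, 4.17, 9.09 and 5.07 RPKM in Lyn-/- mice. The groups were apart (log2 fold change 0.74, SE 0.21, interval 0.31 to 1.17, adjusted p = 0.0204). Mrpl36 had 4.87, 6.27, 7.60 and 8.62 RPKM in Lyn-/-Irf5+/- mice, against 5.50, 3.42, 3.44 and 4.84 RPKM in Lyn-/- mice. Its ranges overlapped (log2 fold change 0.61, SE 0.20, adjusted p = 0.0437), and 13 of the 20 ways of leaving out a library ended its call (0.0509 to 0.136), those of Lyn-/- mice 2 to 4, Lyn-/-Irf5+/- mice 2 to 4, Lyn-/-Irf5-/- mice 1, 2 and 4 and all WT mice. Mrpl12 lost its call without Lyn-/- mouse 2 or 4 or Lyn-/-Irf5+/- mouse 2 (adjusted p = 0.0630 to 0.0807).

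**Figure D5:**
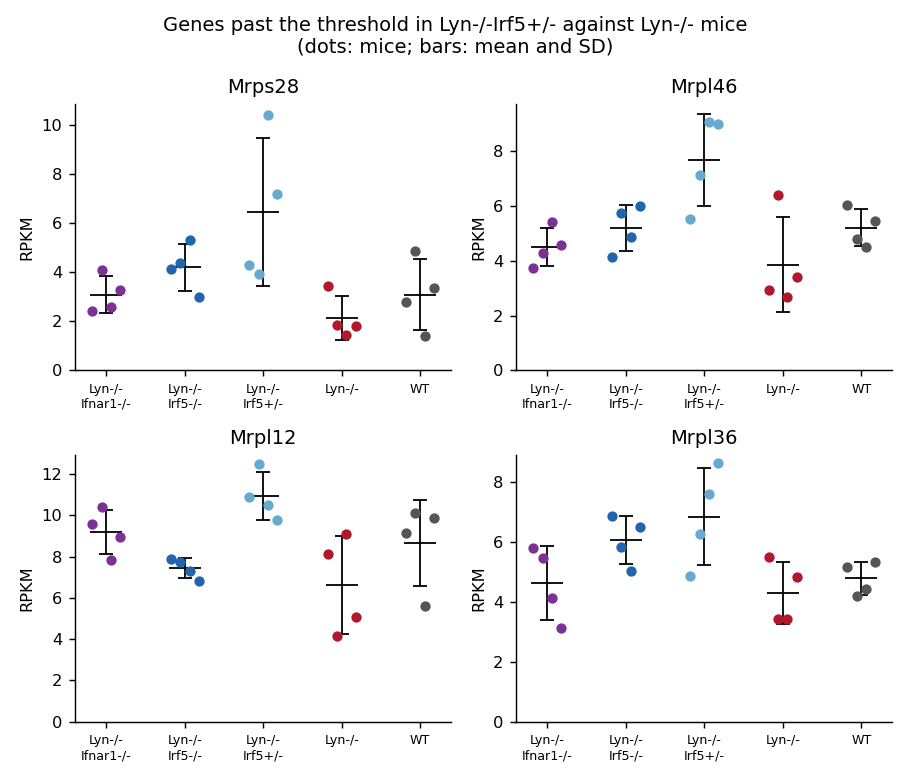
RPKM of the 4 genes that passed the threshold in Lyn-/-Irf5+/- against Lyn-/- mice, in all 5 genotypes (dots are mice, bars the mean and SD, n = 4). The Lyn-/-Irf5+/- mean is the highest of the 5 in each panel, for example 6.44 RPKM for Mrps28 and 7.69 RPKM for Mrpl46.

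With both copies of Irf5 lost, 2 members passed. In Lyn-/-Irf5-/- against Lyn-/- mice, Mrps26 was higher and Mrpl32 lower (2.78% of 72, where 13.9% of all genes tested passed, 5.36% as higher and 8.58% as lower). Mrps26 had 15.1, 12.0, 11.4 and 11.6 RPKM in Lyn-/-Irf5-/- mice, against 9.74, 5.03, 8.97 and 5.45 RPKM in Lyn-/- mice. The groups were apart, with a log2 fold change of 0.78 (SE 0.22, interval 0.33 to 1.23, adjusted p = 0.0186), and the call was lost without Lyn-/- mouse 2 or 4 or Lyn-/-Irf5-/- mouse 1 (0.0704 to 0.0775). Mrpl32 had 31.6, 35.9, 31.1 and 29.3 RPKM in Lyn-/-Irf5-/- mice, against 53.1, 97.4, 61.6 and 123 RPKM in Lyn-/- mice. The highest Lyn-/-Irf5-/- mouse was below the lowest Lyn-/- mouse (log2 fold change -1.30, SE 0.35, interval -2.02 to -0.57, adjusted p = 0.0159), and without Lyn-/- mouse 2 or 4 the adjusted p was 0.0515 to 0.0668. Erythroid markers moved the same way as Mrpl32, with 12 of 14 lower in Lyn-/-Irf5-/- mice and means of 4.82 to 5.41, against 6.71 to 8.10 in Lyn-/- mice. The hemoglobin share of RPKM was 60.4 to 68.4% in Lyn-/-Irf5-/- mice, against 55.5 to 61.3% in Lyn-/- mice. Other markers that were lower were 5 of 9 monocyte markers (4.47 to 4.64 in Lyn-/-Irf5-/- mice, against 4.81 to 5.08 in Lyn-/- mice) and 2 of 9 erythroblast and cell cycle markers (0.94 to 1.18, against 1.32 to 2.43). The monocyte list was split, since 4 of the 9 had positive log2 fold changes (up to 0.71), none of them past the threshold. Higher were 8 of 11 B cell markers (3.17 to 3.73 in Lyn-/-Irf5-/- mice, against 1.94 to 2.53 in Lyn-/- mice), 6 of 12 T cell markers (4.95 to 5.38, against 4.34 to 4.91) and 3 of 8 NK cell markers (2.59 to 3.23, against 1.86 to 2.69). Their part in the calls of Mrps26 and Mrpl32 was not tested. Mrps28 stood at 4.13, 4.37, 5.30 and 2.99 RPKM in Lyn-/-Irf5-/- mice, overlapping the Lyn-/- mice, with an adjusted p of 0.0667. The median log2 fold change of the members was 0.12, against 0.06 over all genes. With the same RPKM sum outside hemoglobin, these medians became 0.75 and 0.65 and 22 members passed, 21 of them higher. Of the 8696 genes, 3164 passed under this scaling, 2818 of them higher.

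The 3 comparisons with Lyn-/- mice share the same 4 Lyn-/- libraries, so that their values are not independent. For Mrps26 the log2 fold changes were 0.81 in Lyn-/-Ifnar1-/-, 0.78 in Lyn-/-Irf5-/- and 0.47 in Lyn-/-Irf5+/- mice (adjusted p = 0.147 for the last). Mrps28 had 0.48 in Lyn-/-Ifnar1-/- (adjusted p = 0.378), 0.87 in Lyn-/-Irf5-/- (0.0667) and 1.36 in Lyn-/-Irf5+/- mice. Mrpl46 had 0.26 in Lyn-/-Ifnar1-/- (adjusted p = 0.496), 0.44 in Lyn-/-Irf5-/- (0.181) and 0.96 in Lyn-/-Irf5+/- mice.

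Set directly against each other, Lyn-/-Ifnar1-/- and Lyn-/-Irf5-/- mice had no member past the threshold by limma or by limma-voom. By limma, 4.01% of all genes tested passed (1.95% as higher and 2.06% as lower). At an unadjusted p under 0.05 by limma were 9 of the 72 members (12.5%, against 21.2% of all genes). The median log2 fold change was -0.10, against -0.03 over all genes. Of the 72 intervals, 59 lay within a 2-fold change (81.9%, against 77.9% over all genes). Mrpl27, a large-subunit protein whose bacterial counterpart reaches the peptidyl transferase center, was lowest in p. It had 0.958, 2.69, 0 and 1.29 RPKM in Lyn-/-Ifnar1-/- mice, against 3.80, 3.17, 2.62 and 5.07 RPKM in Lyn-/-Irf5-/- mice, with a median of 5 reads per library over the series (log2 fold change -1.51, interval -2.42 to -0.60, adjusted p = 0.0541). Mrps23 had Lyn-/-Ifnar1-/- mice wholly above Lyn-/-Irf5-/- mice (means of 15.2 and 11.7 RPKM) at an adjusted p of 0.102. Leaving out Lyn-/-Ifnar1-/- mouse 1 gave 3 calls (Mrpl19, Mrpl20 and Mrpl27) and leaving out mouse 2 gave 4 (Mrpl13, Mrpl15, Mrpl27 and Mrpl32). Over all genes, 897 and 1063 passed in these fits. Higher were 5 of 14 erythroid markers (5.55 to 8.19 in Lyn-/-Ifnar1-/- mice, against 4.82 to 5.41), 1 of 8 platelet and 1 of 9 erythroblast and cell cycle markers. Lower were 2 of 10 neutrophil markers (4.18 to 5.60, against 5.84 to 6.22), 1 of 11 B cell and 1 of 9 monocyte markers. No T cell or NK cell marker passed. The part of cell composition in the members' values was not tested.

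Of 6 genes for proteins of the mitochondrial ribosome whose symbols follow another pattern, 1 (16.7%) passed in each of 3 comparisons, where 32.5% (Lyn-/- against WT), 6.69% (Lyn-/-Ifnar1-/- against Lyn-/-) and 14.6% (Lyn-/-Irf5+/- against Lyn-/-) of all genes tested passed. Chchd1 was lower in Lyn-/- mice (7.65 ± 2.87 RPKM) than in WT mice (11.2 ± 0.976 RPKM, log2 fold change -0.58, adjusted p = 0.0416) and higher in Lyn-/-Irf5+/- mice (16.7 ± 3.33 RPKM) than in Lyn-/- mice (log2 fold change 1.12, adjusted p = 0.00191). Dap3, a GTP-binding small-subunit protein, was higher in Lyn-/-Ifnar1-/- mice (2.68 ± 0.408 RPKM) than in Lyn-/- mice (1.58 ± 0.291 RPKM, adjusted p = 0.0380). All values are SD with n = 4, and no other gene of these 6 passed in any comparison.

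Lists of genes that act around the mitochondrial ribosome were set beside the background of Lyn-/- against WT mice, in which 17.1% of all genes tested were higher and 15.5% lower. No test of a list was run, and each count in that comparison is to be read against these shares. The shares higher and lower were 6.12 and 8.46% in Lyn-/-Irf5+/- against Lyn-/- mice. They were 5.36 and 8.58% in Lyn-/-Irf5-/- against Lyn-/- mice, and 1.95 and 2.06% in Lyn-/-Ifnar1-/- against Lyn-/-Irf5-/- mice. Of 8 tested genes for mitochondrial DNA transcription and maintenance, 4 were lower in Lyn-/- than in WT mice and none higher. Tfam, which packages mitochondrial DNA and starts its transcription, averaged 1.62 ± 0.627 RPKM in Lyn-/- mice, against 3.70 ± 0.260 RPKM in WT mice (log2 fold change -1.03, adjusted p = 2.93e-04). Polrmt, the mitochondrial RNA polymerase, averaged 0.881 ± 0.391 RPKM in Lyn-/- mice, against 2.11 ± 0.615 RPKM in WT mice (-0.93, adjusted p = 0.00145). In Lyn-/-Irf5+/- against Lyn-/- mice, 2 of these 8 were higher, Tfam (log2 fold change 0.63, adjusted p = 0.0290) and the transcription factor Tfb2m (0.89, adjusted p = 0.0406). In Lyn-/-Irf5-/- mice Polrmt was higher (0.69, adjusted p = 0.0245).

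Of 12 tested mitochondrial aminoacyl-tRNA synthetase genes, which charge tRNAs for translation in the organelle, 3 were lower in Lyn-/- than in WT mice and none higher. They included Mars2 (log2 fold change -1.13, adjusted p = 0.00621), at 0.320 ± 0.119 RPKM in Lyn-/- mice against 1.41 ± 0.737 RPKM in WT mice, and Yars2 (-0.76, adjusted p = 0.0339). Rars2 was higher in Lyn-/-Irf5+/- than in Lyn-/- mice (0.90, adjusted p = 0.0154) and Fars2 lower in Lyn-/-Irf5-/- than in Lyn-/- mice (-1.06, adjusted p = 0.0417). Lars2 averaged 84.7 ± 52.5 RPKM in Lyn-/-Ifnar1-/- mice and 33.5 ± 7.41 RPKM in Lyn-/-Irf5-/- mice (1.14, adjusted p = 0.0468). Of 10 translation factor genes, the initiation factor gene Mtif2 was lower in Lyn-/- than in WT mice (-0.55, adjusted p = 0.0491), and none passed in the other 4 comparisons. Of 16 genes for ribosome assembly and rRNA modification, Ngrn was lower in Lyn-/- than in WT mice (-0.60, adjusted p = 0.0441) and Fastkd2 higher in Lyn-/-Irf5+/- than in Lyn-/- mice (0.53, adjusted p = 0.0485). None of the 16 passed in the other 3 comparisons.

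The members can be set beside 2 larger classes of 72 tested genes each. In Lyn-/- against WT mice, 0 cytosolic ribosomal protein genes were higher and 9 lower (median log2 fold change -0.19), and 5 nuclear-encoded subunit genes of oxidative phosphorylation were higher and 1 lower (median 0.40), against 3 and 3 members (median -0.14). Counting both directions, 12.5% of the cytosolic class, 8.33% of the oxidative phosphorylation class and 8.33% of the members passed. Of all genes tested 32.5% did, 17.1% as higher and 15.5% as lower. In Lyn-/-Irf5+/- against Lyn-/- mice, 29 cytosolic ribosomal protein genes were higher and none lower (median 0.51), against 4 and 0 members (median 0.18), while oxidative phosphorylation genes had a median of -0.03. The 29 were 40.3% of their class and the 4 were 5.56% of the members, where 6.12% of all genes tested were higher. In Lyn-/-Irf5-/- against Lyn-/- mice the medians were 0.16 for the cytosolic ribosome, -0.23 for oxidative phosphorylation and 0.12 for the members. In Lyn-/-Ifnar1-/- against Lyn-/- mice they were 0.14, 0.09 and 0.01, and in Lyn-/-Ifnar1-/- against Lyn-/-Irf5-/- mice -0.01, 0.37 and -0.10. In the last comparison, 57 of 72 oxidative phosphorylation genes were positive (79.2%, against 46.3% of all genes). Of these 72, 2 passed, both higher (2.78%, where 1.95% of all genes were higher). The differences between these classes were not tested.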

How the data were processed

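Per the labels, RNA of stabilized peripheral blood was made into strand-specific libraries and sequenced on an Illumina NextSeq. The submitters' processing notes name bcl2fastq, STAR, featureCounts, edgeR and mm10. The authors deposited RPKM, scaled by TMM in edgeR, for 9228 genes, with 1 column per mouse (20 in all). The filter that chose these genes and the strand setting of the count are not given in the sources used here. The methods speak of more mice per strain than the 4 libraries per genotype analysed here. The scaling bears on every fold change, since hemoglobin mRNA takes most of each library.

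The 8696 genes that reached 1 RPKM in 4 or more libraries were tested on the scale log2(RPKM + 0.5). limma 3.58.1 (R 4.3.3) was fitted once to the 20 libraries, with genotype as the term, its prior variance following expression, and Benjamini-Hochberg adjustment at 0.05 over all genes tested in each of 5 comparisons. A fold change on this scale understates the change of low genes. Whole reads were recovered from the RPKM steps of each gene for 9227 of 9228 genes (tolerance 0.05 reads) and served for depth and for limma-voom, which called 3114 genes in Lyn-/- against WT mice where limma on RPKM called 2829. Alternatives covered the pseudocount, the filter, the scaling, the libraries and variance model used, a replicate block, limma-voom and leaving out libraries. Named were members past the threshold (up to 8 each way in a comparison), the 3 highest and 3 lowest, the Mrps18 paralogs, members at 0 in a library and up to 2 genes per related list and comparison; Mrps21, Mrpl39, Mrpl38, Mrps23, Mrpl52, Mrpl24 and the members called only without a library were added after their values were seen. Members, lists and alternatives were chosen with earlier results of these data known. Each library is a separate mouse. Sequences, starts and positions are from RefSeq (GRCm38.p6). Tables and plots were made with numpy 2.4.6, pandas 2.3.3 and matplotlib 3.10.9 in Python 3.11.15. Mrpl23, Mrpl57, Mrps36 and Mrps6 were not analysed here.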

Additional observations from a re-analysis of the deposited data

Results flagged for a closer look

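Among 105 sets of 4 mice (1 gene or mean in 1 genotype), 11 held a mouse whose distance from the nearest other was past Dixon's 95% critical value for 4 samples, where chance flags about 1 in 20. Mrpl33 stood at 5.99 RPKM (3 reads) in Lyn-/-Ifnar1-/- mouse 3, against 27.3 to 29.0 RPKM in the other 3, and at 20.5 RPKM in WT mouse 1, against 12.5 to 13.6 RPKM. Mrps26 stood at 15.1 RPKM in Lyn-/-Irf5-/- mouse 1, against 11.4 to 12.0 RPKM.

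The other gene values that stood apart rested on 0 to 28 reads. Mrpl35 was at 1.86 RPKM in Lyn-/-Ifnar1-/- mouse 2 and at 1.49 RPKM in Lyn-/-Irf5-/- mouse 3. Mrps25, whose annotated span overlaps Nr2c2, was at 1.27 RPKM in Lyn-/-Ifnar1-/- mouse 1. Mrpl17 was at 0.792 RPKM in WT mouse 3 and Mrpl27 at 3.78 RPKM in Lyn-/- mouse 3. Mrpl47 was at 0 in WT mouse 3, against 3.67 to 4.33 RPKM in the other WT mice. Mrps11 was at 5.97 RPKM (10 reads) in Lyn-/-Irf5+/- mouse 3, against 2.48 to 2.84 RPKM. The mean log2 value of the members was 2.50 in Lyn-/-Irf5+/- mouse 1, against 2.67 to 2.69 in the other 3.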

How the results depend on the processing

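No result changed sign past the threshold under any alternative run. The other pseudocounts (0.1 and 1), no filter, the 5 RPKM filter, median of ratios scaling and no variance trend kept each count of members within 1.5 times that reported. Mrps28 could not be tested under the 5 RPKM filter. The counts turned most on the scaling. With the same RPKM sum in every library, 0 members were higher and 0 lower in Lyn-/- against WT, 0 higher in Lyn-/-Ifnar1-/- against Lyn-/-, 0 higher in Lyn-/-Irf5+/- against Lyn-/-, 0 lower in Lyn-/-Irf5-/- against Lyn-/- and 1 lower (Mrpl27) in Lyn-/-Ifnar1-/- against Lyn-/-Irf5-/-. Over all 8696 genes, the same counts in that order were 515 and 332, 3, 15, 262 and 167. The members' medians became -0.36, -0.12, -0.06, 0.63 and -0.80 in that order of comparisons, beside -0.25, -0.14, -0.20, 0.54 and -0.66 over all genes. With the same sum outside hemoglobin, 0 were higher and 10 lower in Lyn-/- against WT, 0 higher in Lyn-/-Ifnar1-/- against Lyn-/-, 2 higher in Lyn-/-Irf5+/- against Lyn-/-, 21 higher in Lyn-/-Irf5-/- against Lyn-/- and 6 lower in Lyn-/-Ifnar1-/- against Lyn-/-Irf5-/-. Over all 8696 genes, the same counts in that order were 515 and 2442, 41, 337, 2818 and 718. The medians became -0.63, 0.05, 0.44, 0.75 and -0.72, beside -0.53, 0.05, 0.25, 0.65 and -0.59 over all genes. The shift of all genes follows from the scaling itself.

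With only the genotypes compared in the model, 0 members were higher in Lyn-/-Ifnar1-/- against Lyn-/-, 2 in Lyn-/-Irf5+/- against Lyn-/- and 2 in Lyn-/-Irf5-/- against Lyn-/-. limma-voom gave 0 higher in Lyn-/-Ifnar1-/- against Lyn-/-. In Lyn-/- against WT it kept 5 of the 6 calls, without Mrps34, and added Mrpl39. Without Lyn-/-Ifnar1-/- mice 3 and 4, 5 were lower in Lyn-/- against WT and 1 (Mrpl32) in Lyn-/-Ifnar1-/- against Lyn-/-. The replicate block gave 1 lower (Mrpl27) in Lyn-/-Ifnar1-/- against Lyn-/-Irf5-/-. Whether the replicate numbers pair the mice cannot be told from these values: 11 of 40 same-numbered pairs correlated above 0.1 (range -0.24 to 0.50), and 7 of 20 libraries correlated best with their own number. The block ended the call of Mrpl36 (adjusted p = 0.0524) and no other named call.

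Leaving out each library gave 0 to 4 higher and 1 to 5 lower in Lyn-/- against WT, 0 to 1 higher and 0 to 3 lower in Lyn-/-Ifnar1-/- against Lyn-/-, 2 to 6 higher in Lyn-/-Irf5+/- against Lyn-/-, 0 to 3 higher and 0 to 1 lower in Lyn-/-Irf5-/- against Lyn-/-, and 0 to 1 higher and 0 to 3 lower in Lyn-/-Ifnar1-/- against Lyn-/-Irf5-/-. Under all of these the calls of Mrps26 in Lyn-/- against WT and of Mrps28 and Mrpl46 in Lyn-/-Irf5+/- against Lyn-/- were kept. Except for the scalings, the cause of each change was not tested. Depth limits the low members most: 290 of 1460 values rest on under 10 reads.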
